A study of Mus musculus with 34 samples.

Results

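Hepcidin, the iron hormone that hepatocytes secrete, and 9 further genes of liver iron handling were described in RNA sequencing data from mouse liver tumors and livers. The 10 genes were taken by symbol: the hepcidin genes Hamp and Hamp2, the iron sensors Tfr2 and Hfe, the ligand Bmp6 and the BMP target Id1, the transferrin receptor Tfrc, transferrin (Trf), the iron exporter Slc40a1 (ferroportin) and the ferritin heavy chain Fth1. All 10 were among the 46528 genes of the mixed-strain table and the 14074 genes of the Rag1-/- table. Of the 16140 genes of the FVB table, 9 were members, and Hamp2 was not analysed there. All 34 samples came from mice in which a LAP-tta driver, restricted to liver, switches on TRE-MYC when doxycycline water is withdrawn.

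Arid1a, whose product is part of the SWI/SNF remodeler of chromatin, differed between the groups. Het tumors (Arid1a fl/+ with Alb-cre, a Cre driven by the albumin promoter) were compared with WT tumors, which carried floxed Arid1a and no Cre, on a mixed C57/B6, 129 and FVB background (8 tumors each, mice about 90 days old). On the FVB background there were 4 Homo tumors (fl/fl with Alb-cre, about 100 days), 4 Het tumors (about 70 days) and 4 WT tumors (about 55 days). Tumors were taken at death, so age moved with genotype in FVB, and no WT tumor in either background had Cre, while every Het and Homo tumor did. The third set was livers of Rag1-/- mice, which lack mature lymphocytes, with the MYC transgenes and no floxed Arid1a in the genotype label. They were taken at about 42 days, 14 days after an adenovirus, either ad-ARID1A with the human gene (3 livers) or ad-Cre with the recombinase (3 livers). As the control virus alone carried Cre, the effects of adding ARID1A and of lacking viral Cre cannot be told apart. Whether each sample is a separate mouse is not in the labels, so the p-values speak of the spread among these samples alone.

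Hepcidin binds ferroportin at the cell surface, blocks it and leads to its breakdown, which lowers iron release into plasma. In hepatocytes its gene is driven by BMP ligands from sinusoidal endothelial cells, chiefly BMP6 and BMP2, through hemojuvelin and SMAD proteins, and by interleukin-6 through its receptor subunit gp130 and STAT3. HFE and transferrin receptor 2 report the iron load of plasma transferrin to the BMP pathway. Inside cells, iron regulatory proteins bind iron-responsive elements, which are RNA hairpins that block ferritin and ferroportin translation and protect the transferrin receptor mRNA when iron is scarce.

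The sequencing depth implied by the smallest steps in the values was 2280000 to 5282000 reads in the mixed-strain libraries, 6634000 to 12040000 in FVB and 8724000 to 10610000 in Rag1-/-. Arid1a itself had 249.7 to 329.8 CPM (counts scaled to a common library total) in mixed-strain Het tumors, against 314 to 490.1 CPM in WT tumors. It had 172 to 256 CPM in FVB Homo and 185 to 292 CPM in FVB Het tumors, against 212 to 311 CPM in WT tumors, and its reads were counted over the whole gene. All 12 hepatocyte markers examined were present in every group, with a summed level of 2830 to 14600 CPM in tumors and 75300 to 89900 CPM in the Rag1-/- livers. Libraries stood apart in the tumor tables. Mixed-strain Het 5 lay at 78.0 on the second principal component, where the others lay between -29.0 and 22.2, and WT 2 lay lowest on the first at -63.5. Het 6 lay highest on the first at 74.3, with Het 1 next at 48.3, and was not left out together with Het 5 and WT 2 below. FVB WT 1 and WT 2 lay at 43.9 and 53.3 on the first component, and the other 10 FVB libraries between -19.5 and 3.8.

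Hamp lies on chromosome 7 (30942368 to 30944032, minus strand, GRCm38), and its near copy Hamp2 lies beside it (30922372 to 30924681, minus strand). These spans are those of the GENCODE annotation. Because both pathways named above end at the promoter, the 250 bases before each gene's start in RefSeq (GRCm38.p6) are shown. For Hamp2 that start lies inside the GENCODE span, so its whole window does too. The first capitals mark the letters of the BMP-responsive element and the second the STAT site. The Hamp window is chr7:30944030-30944279 and the Hamp2 window chr7:30924182-30924431, both read on the minus strand.
Hamp: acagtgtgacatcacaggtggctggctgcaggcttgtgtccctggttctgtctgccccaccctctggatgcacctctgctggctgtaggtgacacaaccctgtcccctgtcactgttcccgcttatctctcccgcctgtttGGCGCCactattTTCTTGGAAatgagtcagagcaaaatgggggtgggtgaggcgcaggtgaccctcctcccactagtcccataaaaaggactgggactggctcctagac
Hamp2: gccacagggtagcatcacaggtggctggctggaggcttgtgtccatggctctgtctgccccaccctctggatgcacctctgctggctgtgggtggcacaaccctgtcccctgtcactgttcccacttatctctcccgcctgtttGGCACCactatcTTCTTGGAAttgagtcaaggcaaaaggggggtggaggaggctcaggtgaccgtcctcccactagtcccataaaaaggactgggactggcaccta
The letters GGCGCC stand 109 to 104 bases before the RefSeq start of Hamp and TTCTTGGAA 97 to 89 bases before it, with no overlap. Hamp2 differs from Hamp by G145A in the first motif, counted from 1 at the 5′ end of the printed Hamp window, and by no base in the second. The windows were identical at 91.9% of 247 aligned bases. Of 32851 RefSeq windows of this length searched on both strands, 9.59% held GGCGCC, 0.365% held TTCTTGGAA and 0.00913%, 3 windows, held both. Promoter entries were found for 7 of the 10 members. Among these, GGCGCC occurred for Hamp and Tfrc, TTCTTGGAA for Hamp and Hamp2, and both for Hamp. A match of letters describes the window and no more.

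Hamp was lower in tumors with Arid1a deletion than in WT tumors in both backgrounds, by more than any other member, but it did not pass the test over all genes in any comparison. In the mixed-strain set the lowest, median and highest Het tumors had 0.569, 4.27 and 44.9 CPM, against 14.0, 46.2 and 135 CPM in WT tumors. Of the 8 Het tumors, 5 lay below every WT tumor and 3 lay within the WT range, and the lowest held 3 reads. The Het tumors also spread more widely, with a 78.9-fold range against a 9.64-fold range in WT. On the log2(CPM + 0.5) scale, which understates changes near 0, the level was 2.69 ± 1.94 in Het and 5.49 ± 0.88 in WT tumors (SD, n = 8 each). The log2 fold change was -2.80 ± 0.67 SE (95% interval -4.203 to -1.39), with a limma adjusted p of 0.0949 by the Benjamini-Hochberg method over 17552 genes, where under 0.05 counts as passing. It passed without Het 2 (-3.07, adjusted p = 0.0439) or without Het 5 (-3.20, adjusted p = 0.0432), and was -2.97 without both WT 2 and Het 5 (adjusted p = 0.0723). That last fit dropped the highest Het tumor for Hamp and kept Het 6, the lowest. Leaving out single libraries gave -3.20 to -2.43, with a limma adjusted p of 0.0432 to 0.208. Over all alternatives the limma adjusted p ran from 0.0335 to 0.208.

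In this comparison 0.16% of all genes passed, and 0 of the 10 members did. At an unadjusted limma p under 0.05, 15.8% of all genes were counted, with 7.5% of all genes lower in Het, and 3 of the 10 members, Hamp, Tfr2 and Trf, each lower in Het. No member had groups that did not overlap, which 0.137% of all genes had. Of the members 9 were lower and 1 higher, with a median log2 fold change of -0.38 against 0.05 over all genes. Summed hepatocyte markers ran from 2830 to 6530 CPM in Het and from 5400 to 13600 CPM in WT tumors. Summed neutrophil markers ran from 6.06 to 61.4 CPM in Het, with Ly6g at 0 throughout, and from 15.4 to 197 CPM in WT tumors. Their part in the Hamp difference was not tested, and in bulk tissue fewer cells of a type and less RNA per cell cannot be told apart.

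**Figure D1:**
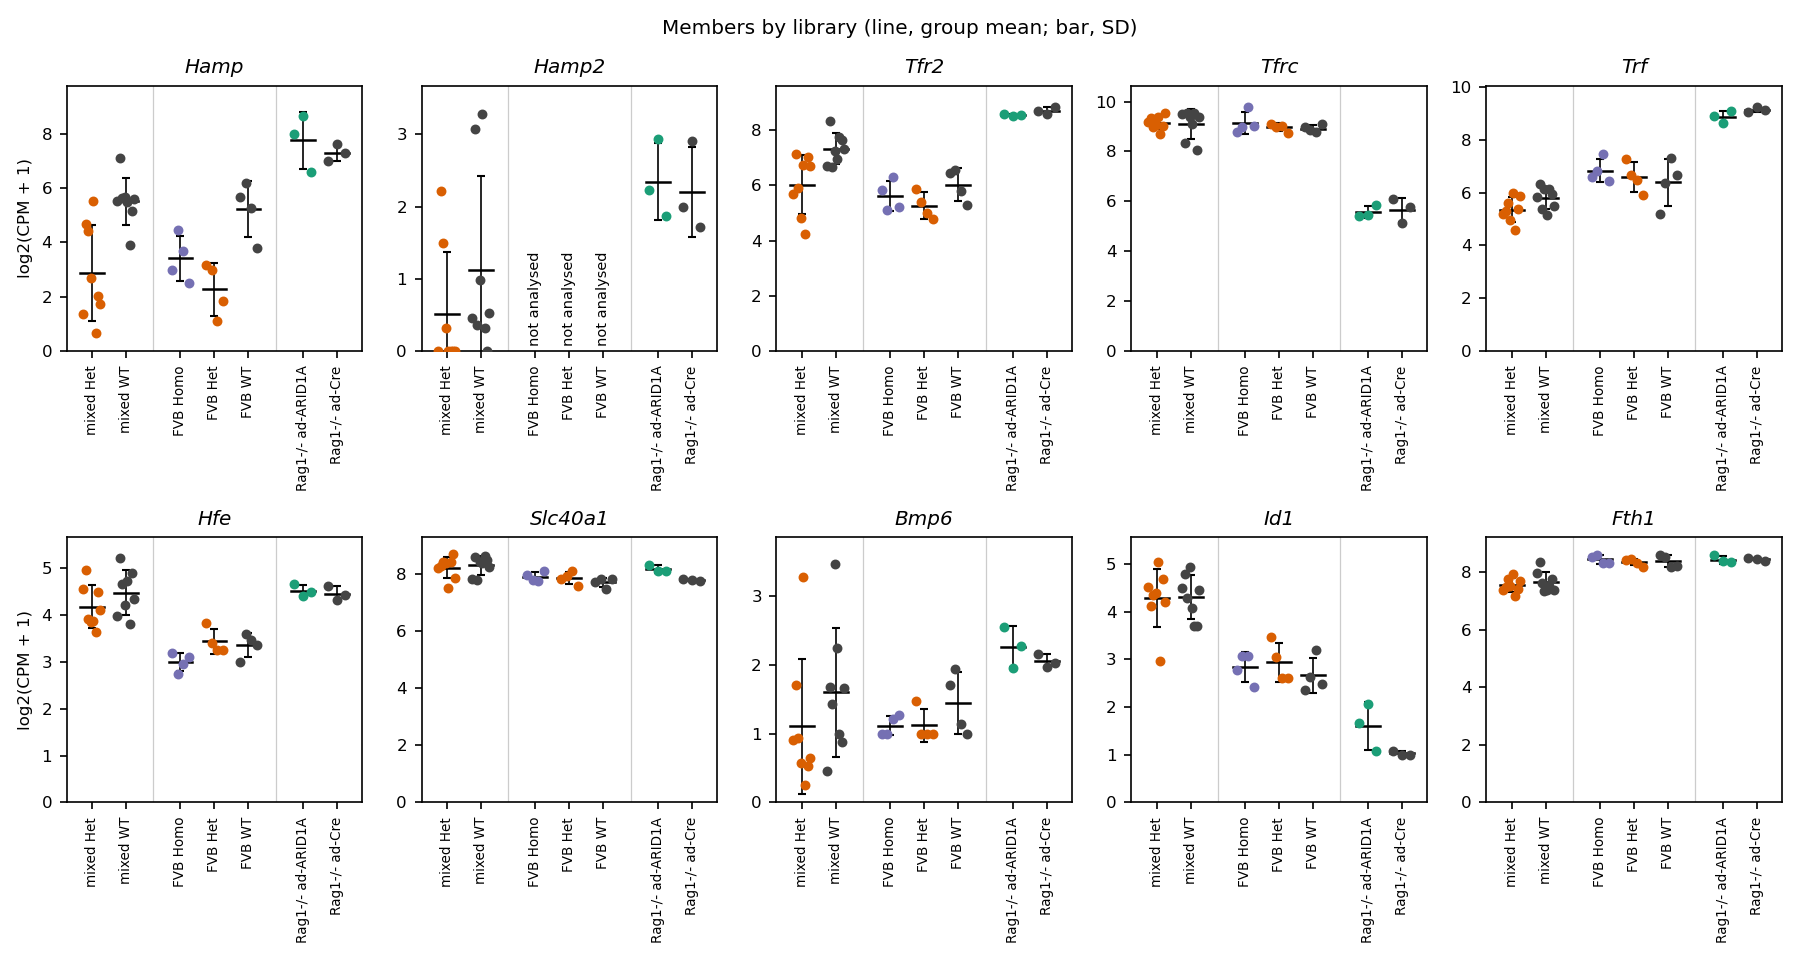
Level of each member in every library, in log2(CPM + 1), with points for libraries, lines for group means and bars for SD. Grey lines part the 3 separately normalized tables, and values at or below 1 CPM in the FVB and Rag1-/- tables are drawn at 1 CPM. All 4 FVB Het points of Hamp lie below all 4 WT points, and 5 of 8 mixed-strain Het points lie below every WT point.

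In FVB tumors the values are the deposited log2 CPM, in which a level of 1 CPM or less is listed at 0. Hamp had 6.92, 20.7, 11.96 and 4.72 CPM in the 4 Homo tumors and 7.89, 6.82, 1.15 and 2.55 CPM in the 4 Het tumors, against 49.9, 72.5, 37.5 and 12.996 CPM in the 4 WT tumors. Every Het tumor and 3 of the 4 Homo tumors lay below every WT tumor. Log2 levels were 3.25 ± 0.93 in Homo, 1.83 ± 1.30 in Het and 5.19 ± 1.07 in WT tumors (SD, n = 4 each). For Het against WT the log2 fold change was -3.36 ± 0.66 SE (95% interval -4.77 to -1.95, limma adjusted p = 0.0693). It passed without WT 4 (-3.86, adjusted p = 0.0238) and was -2.64 without WT 1 and 2 (adjusted p = 0.443), and 0.0238 to 0.443 was also the range of the limma adjusted p over all alternatives.

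For Homo against WT the log2 fold change of Hamp was -1.94 ± 0.66 SE (95% interval -3.35 to -0.53, limma adjusted p = 0.321), and -1.22 without WT 1 and 2. The order of the FVB levels was Het, Homo, WT from low to high. The neighbours Homo and Het overlapped, with 2 of 4 Homo tumors above every Het tumor and a log2 fold change of 1.42 ± 0.66 SE (95% interval 0.01 to 2.83, limma adjusted p = 1). That difference was 0.88 without Het 3. Homo and Het were compared with the same 4 WT tumors, so their differences from WT are not independent.

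Among FVB members, 0 of 9 passed in any comparison, against 0.0248% of all genes for Het against WT, 0.0434% for Homo against WT and 0% for Homo against Het. In that last comparison 3.86% of genes had an unadjusted limma p under 0.05 (1.33% higher and 2.53% lower in Homo), and the members among them were Hamp, higher in Homo, and Hfe, lower in Homo. For Het against WT the share was 14.2% (6.07% lower), with Hamp and Tfr2 of the members, both lower. For Homo against WT it was 10% (5.64% lower), with Hamp of the members, lower. Groups did not overlap for 6.88% of genes in Het against WT (2.47% lower, with Hamp of the members), for 4.07% in Homo against WT (0 members) and for 2.67% in Homo against Het (1.75% lower, with Hfe of the members). Summed erythroid markers ran from 30.8 to 107 CPM in Homo and from 26.0 to 29.2 CPM in Het, against 22.2 to 539 CPM in WT tumors, and of the 10 neutrophil markers measured, 9 were listed at 0 in every Het tumor. Their part in the Hamp differences was not tested.

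Hamp was not separated by ARID1A in the Rag1-/- livers. It had 256, 402 and 96.3 CPM in the 3 ad-ARID1A livers, against 125, 194 and 158 CPM in the 3 ad-Cre livers. The ad-ARID1A values lay on both sides of the controls, with 2 above every ad-Cre liver and 1 below. The log2 level was 7.75 ± 1.05 in ad-ARID1A and 7.29 ± 0.32 in ad-Cre livers (SD, n = 3 each), a log2 fold change of 0.46 ± 0.41 SE (95% interval -0.47 to 1.38, limma adjusted p = 0.700). It was 0.005 without ad-ARID1A 2 and 1.035 without ad-ARID1A 3. Across the separately normalized tables, where tissue, strain, age, lymphocytes and virus all differ and no test applies, each of these livers exceeded the highest FVB tumor, 72.5 CPM. The highest mixed-strain tumor, 135 CPM in WT, lay within their range.

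Hamp2 could be followed in the mixed-strain and Rag1-/- tables. In mixed-strain tumors it was listed at 0 in 5 of 8 Het and 1 of 8 WT tumors, and the highest values were 3.63 CPM in Het and 8.71 CPM in WT, so most libraries held few or no reads. Its log2 fold change was -0.86 ± 0.64 SE (limma adjusted p = 0.524). Among Rag1-/- livers, Hamp2 had 3.71, 6.63 and 2.66 CPM with ad-ARID1A, against 2.97, 6.498 and 2.30 CPM with ad-Cre, and the groups overlapped (log2 fold change 0.19 ± 0.45 SE, limma adjusted p = 0.898).

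The level of Hamp relative to Hamp2 was compared as a difference of log2 values. It was 2.96 ± 1.57 in mixed-strain Het and 4.90 ± 1.31 in WT tumors (SD, n = 8 each), a difference of -1.94 in a two-sided exact permutation test (p = 0.0208, 0.0416 adjusted over the 2 comparisons run). Where Hamp2 was at 0 the ratio was set by the pseudocount and followed Hamp alone, so this is no measure of how Hamp2 itself changed. For the Rag1-/- livers it was 5.74 ± 0.49 with ad-ARID1A and 5.47 ± 0.60 with ad-Cre (SD, n = 3 each), a difference of 0.27 (exact permutation p = 0.6, where 0.1 is the smallest possible). The Hamp and Hamp2 transcripts were identical at 94.6% of 410 aligned bases, and 16.6% of 50-base stretches of Hamp occurred in Hamp2. Reads can therefore be split between them in an uncertain way. An exon of Hamp2 also overlaps Gm44662 on the other strand, and no source used here says whether the counting used strand.

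Tfr2 (chromosome 5, 137569840 to 137587481), the transferrin receptor that hepatocytes use to sense iron, was the member with the next largest difference in Het tumors of both backgrounds. Mixed-strain Het tumors had a lowest, median and highest level of 17.8, 80.7 and 141 CPM, against 102, 155 and 319 CPM in WT tumors. Of the 8 Het tumors 4 lay below every WT tumor, and the log2 fold change was -1.31 ± 0.38 SE (limma adjusted p = 0.149). In FVB it had 56.5, 33.6, 77.7 and 36.5 CPM in Homo and 58.1, 40.8, 30.7 and 26.5 CPM in Het tumors, against 87.4, 92.4, 54.6 and 38.1 CPM in WT tumors. These groups overlapped, with log2 fold changes from WT of -0.41 ± 0.33 SE in Homo (limma adjusted p = 0.752) and -0.78 ± 0.33 SE in Het (limma adjusted p = 0.306). Without WT 1 and 2 they were 0.08 in Homo, which turns the direction, and -0.29 in Het. Rag1-/- livers held 385, 365 and 377 CPM with ad-ARID1A, against 413, 383 and 455 CPM with ad-Cre, which overlapped (-0.15 ± 0.09 SE, limma adjusted p = 0.534).

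Hfe (chromosome 13, 23702034 to 23710854), whose human counterpart is mutated in classical hemochromatosis, differed little between mixed-strain groups. It was 17.9 ± 6.43 CPM in mixed-strain Het and 22.4 ± 7.78 CPM in WT tumors (SD, n = 8 each), a log2 fold change of -0.31 ± 0.23 SE. In FVB it had 8.06, 5.70, 6.73 and 7.62 CPM in Homo and 13.3, 9.51, 8.57 and 8.57 CPM in Het tumors, against 7.01, 11.004, 10.1 and 9.25 CPM in WT tumors. Every Homo tumor lay below every Het tumor, with a log2 fold change of -0.50 ± 0.22 SE (limma adjusted p = 1). The Rag1-/- groups overlapped, at 24.3, 20.3 and 21.6 CPM with ad-ARID1A and 23.6, 18.9 and 20.5 CPM with ad-Cre.

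Bmp6 (chromosome 13, 38345107 to 38500302), the ligand that signals iron load, was near the limit of detection. Mixed-strain Het tumors had 0.189 to 8.71 CPM and WT tumors 0.376 to 10.1 CPM, with a log2 fold change of -0.65 ± 0.53 SE (limma adjusted p = 0.561). In FVB it was listed at 0 in 2 of 4 Homo, 3 of 4 Het and 1 of 4 WT tumors. Its differences from WT were -0.52 ± 0.35 SE in Homo and -0.53 ± 0.35 SE in Het, and without WT 1 and 2 they were 0.09 in Homo and 0.08 in Het, so their direction rested on those libraries. The Rag1-/- livers averaged 3.88 CPM with ad-ARID1A and 3.17 CPM with ad-Cre, with overlap (0.26 ± 0.28 SE). An exon of Bmp6 overlaps Txndc5 on the other strand.

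Id1 (chromosome 2, 152736251 to 152737410), a helix-loop-helix protein that BMP signaling induces in the liver together with hepcidin, showed no difference in tumors beyond its spread. It was 19.8 CPM in mixed-strain Het and 19.7 CPM in WT tumors on average, a log2 fold change of -0.02 ± 0.26 SE (95% interval -0.58 to 0.53). In FVB the averages were 6.26 CPM in Homo and 6.90 CPM in Het, against 5.50 CPM in WT tumors. Id1 in the Rag1-/- livers had 2.17, 3.20 and 1.102 CPM with ad-ARID1A, against 1.13 CPM and 2 livers at or below 1 CPM with ad-Cre. The lowest ad-ARID1A liver lay within the control range, and the log2 fold change on the floored scale was 0.92 ± 0.44 SE (limma adjusted p = 0.430).

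Slc40a1 (chromosome 1, 45908068 to 45926523, minus strand), the exporter that hepcidin acts on, was the one member separated in the Rag1-/- livers. It had 324, 274 and 274 CPM with ad-ARID1A, against 226, 223 and 215 CPM with ad-Cre. All 3 ad-ARID1A livers lay above all 3 controls, and groups did not overlap for 17.4% of all genes (13.9% higher with ad-ARID1A). The log2 fold change was 0.39 ± 0.09 SE (95% interval 0.19 to 0.59), with a limma adjusted p of 0.127 that ran from 0.123 to 0.354 over the alternatives. In the comparison of these livers 0.32% of genes and 0 of 10 members passed. At an unadjusted limma p under 0.05 the share was 12.5% (9.88% higher and 2.62% lower), and the members were Slc40a1, higher, and Trf, lower.

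In tumors Slc40a1 was close between genotypes. It was 308.6 ± 72.6 CPM in mixed-strain Het and 325 ± 69.2 CPM in WT tumors (SD, n = 8 each, log2 fold change -0.08 ± 0.16 SE, and 0.07 without WT 2 and Het 5). In FVB it was 242 ± 26.8 CPM in Homo and 238 ± 35.1 CPM in Het, against 211 ± 22.8 CPM in WT tumors (SD, n = 4 each). The 95% intervals of the FVB log2 fold changes from WT were -0.08 to 0.47 in Homo and -0.11 to 0.44 in Het. Ferroportin mRNA is also abundant in Kupffer cells, the resident macrophages of the liver. The sum of 12 macrophage and Kupffer markers had overlapping ranges in every comparison, for example 283 to 368 CPM with ad-ARID1A and 293 to 403 CPM with ad-Cre, but single Kupffer markers differed. Clec4f had 1 to 5.62 CPM in FVB Homo and 1 to 4.35 CPM in FVB Het, against 7.21 to 54.9 CPM in WT tumors (-2.905 ± 0.69 SE in Homo, limma adjusted p = 0.161, and -2.93 ± 0.69 SE in Het, limma adjusted p = 0.0975), and both groups were separated from WT. Vsig4 was -1.75 ± 0.51 SE in Homo and -2.095 ± 0.51 SE in Het, separated in Het, and Marco was -2.19 ± 0.61 SE in Homo and -1.83 ± 0.61 SE in Het. In mixed-strain Het tumors Clec4f was -3.42 ± 1.01 SE, Vsig4 -2.62 ± 0.85 SE and Marco -2.23 ± 0.70 SE, all with overlap. With ad-ARID1A, Marco had at most 1, 1.44 and 2.99 CPM, against 4.92, 4.53 and 3.78 CPM with ad-Cre, and was separated (-1.43 ± 0.40 SE, limma adjusted p = 0.188). Other markers of the 12 went the other way. In FVB 5 were higher and 7 lower in Homo, and 7 higher and 5 lower in Het, than in WT tumors. In mixed-strain Het tumors 2 were higher and 10 lower, and with ad-ARID1A 5 were higher and 7 lower. Timd4 was 0.755 ± 0.68 SE in FVB Het and separated above WT. Cd68 was 0.46 ± 0.23 SE with ad-ARID1A and separated above ad-Cre. The part of these cells in the Slc40a1 values was not tested.

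**Figure D2:**
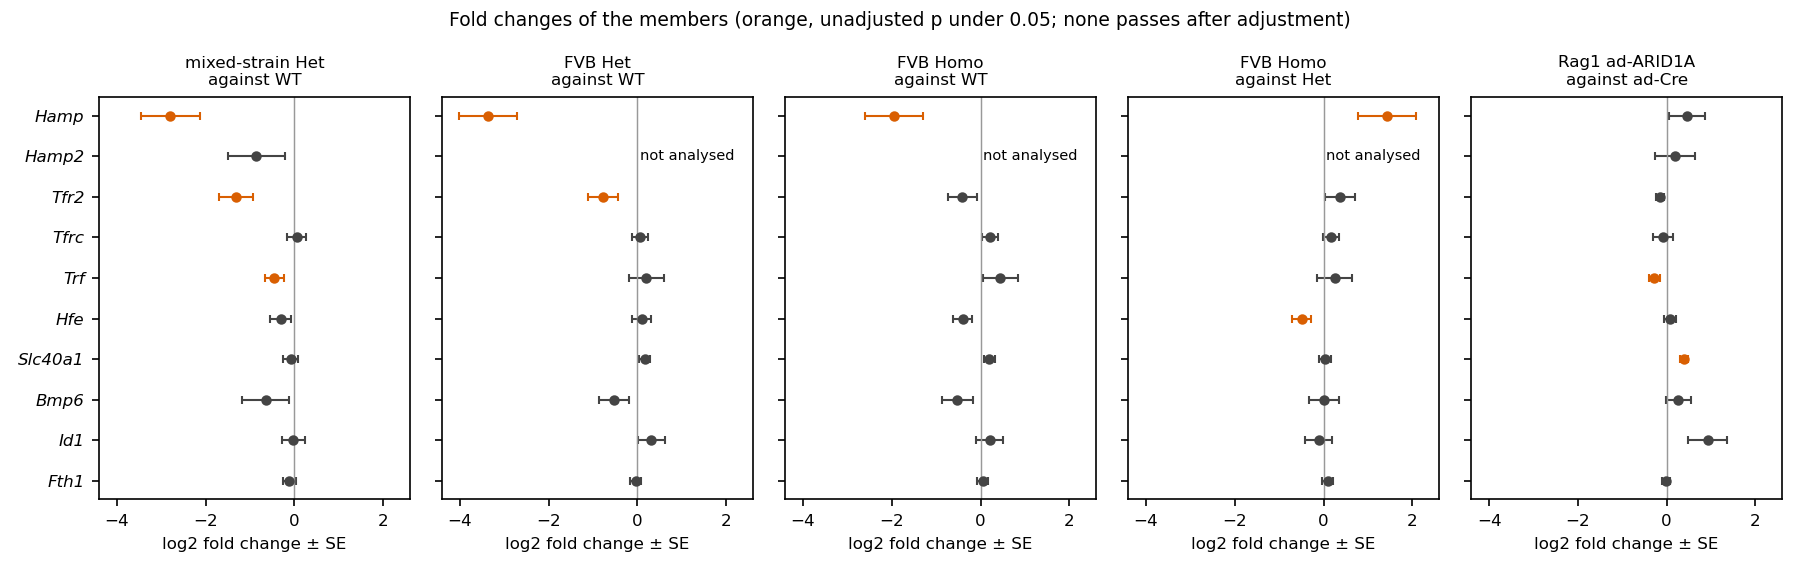
Log2 fold change of each member with its standard error in the 5 comparisons, orange where the unadjusted limma p was under 0.05. Hamp lies farthest to the left in the 3 comparisons with WT tumors, at -2.80, -3.36 and -1.94, and Slc40a1 lies at 0.39 in the Rag1-/- livers.

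Slc40a1, Fth1 and Tfrc carry the hairpins through which cellular iron sets their use. A search of the GRCm38 transcripts for a bulged C, 5 stem pairs and a CAGTGN loop found 1 in the 5′ UTR of Slc40a1, 1 in the 5′ UTR of Fth1 and 4 in the 3′ UTR of Tfrc. It found 0 in the other 7 members, with 1 transcript searched for each member. Of 21877 protein-coding genes, 294 (1.34%) had at least 1 in any protein-coding transcript, a wider search than that of the members. They are shown because translation and RNA decay act here, which mRNA levels reflect only in part, and the capitals mark the loop. The Slc40a1 site is chr1:45925466-45925492 on the minus strand and the Fth1 site chr19:9982733-9982759 on the plus strand. The Tfrc sites are on the plus strand of chromosome 16 and start at 32631220, 32631599, 32631664 and 32631711.
Slc40a1: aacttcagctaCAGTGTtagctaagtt
Fth1: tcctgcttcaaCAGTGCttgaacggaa
Tfrc site 1: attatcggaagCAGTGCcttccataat
Tfrc site 2: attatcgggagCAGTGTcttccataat
Tfrc site 3: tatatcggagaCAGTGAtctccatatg
Tfrc site 4: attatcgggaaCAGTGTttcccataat

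Tfrc (chromosome 16, 32608920 to 32632794), through which dividing cells take up transferrin, had 577 CPM in mixed-strain Het and 586 CPM in WT tumors on average, a log2 fold change of 0.05 ± 0.21 SE (95% interval -0.39 to 0.48) and -0.09 without WT 2 and Het 5. FVB tumors averaged 586 CPM in Homo and 503 CPM in Het, against 485 CPM in WT. Rag1-/- livers had 41.6, 43.1 and 56.9 CPM with ad-ARID1A, against 67.2, 34.1 and 53.4 CPM with ad-Cre. The groups overlapped in each table. Every tumor library, at 262 CPM or more, lay above every liver library, across tables that were normalized separately.

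Fth1 (chromosome 19, 9980598 to 9985098), the ferritin subunit that oxidizes iron for storage, was 187 ± 32.8 CPM in mixed-strain Het and 206 ± 54.5 CPM in WT tumors (SD, n = 8 each, log2 fold change -0.12 ± 0.14 SE). In FVB it averaged 346 CPM in Homo and 325 CPM in Het, against 335 CPM in WT tumors. The Rag1-/- livers averaged 344 CPM with ad-ARID1A and 349 CPM with ad-Cre. No pair of groups was separated. The 95% intervals lay between -0.42 and 0.35 on the log2 scale in the 5 comparisons. Fth1 has processed pseudogenes, so its reads may be split in counting.

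Trf (chromosome 9, 103204001 to 103230444), the plasma iron carrier made by hepatocytes, had a lowest, median and highest level of 22.9, 39.7 and 61.7 CPM in mixed-strain Het tumors, against 35.002, 57.9 and 78.9 CPM in WT tumors. These overlapped, with a log2 fold change of -0.45 ± 0.21 SE (limma adjusted p = 0.305). The FVB tumors had 95.01, 112, 174 and 86.8 CPM in Homo and 155, 99.7, 87.4 and 58.9 CPM in Het, against 35.5, 82.1, 159 and 99.7 CPM in WT. Their log2 fold changes from WT were 0.45 ± 0.39 SE in Homo and 0.20 ± 0.39 SE in Het, and -0.16 and -0.41 without WT 1 and 2. Trf in the Rag1-/- livers had 481, 396 and 541 CPM with ad-ARID1A, against 537, 605 and 560 CPM with ad-Cre, and 2 of 3 ad-ARID1A livers lay below every control (-0.27 ± 0.12 SE, limma adjusted p = 0.379). Trf shares exons with Gm20425 on the same strand.

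Other genes of the pathways around hepcidin were taken from lists. Of 27 tested genes that control hepcidin, 21 were lower and 6 higher in mixed-strain Het than WT tumors. Their median log2 fold change was -0.40 against 0.05 over all genes, and 0 passed limma's test. At an unadjusted limma p under 0.05 there were 1 higher and 8 lower, against 15.8% of all genes (7.5% lower). Tmprss6, the protease that cuts hemojuvelin and so lowers hepcidin, had a lowest, median and highest level of 4.21, 6.46 and 102 CPM in Het, against 38.1, 113 and 257 CPM in WT tumors (-2.66 ± 0.68 SE, limma adjusted p = 0.113). Furin, which processes prohepcidin, was -0.37 ± 0.11 SE, and Smad4, the shared SMAD, was 0.22 ± 0.08 SE. The BMP coreceptor hemojuvelin (Hfe2), named after its values were seen, had 1.33 to 136 CPM in Het and 71.5 to 183 CPM in WT tumors (-1.74 ± 0.72 SE, 5 of 8 Het tumors below every WT tumor). It was not lower in the other tables beyond its spread. FVB Het tumors had a log2 fold change of 0.075 ± 0.54 SE from WT, with 2 of 4 above every WT tumor and 1 below. Of the FVB Homo tumors, 2 of 4 lay above every WT tumor and 0 below. With ad-ARID1A against ad-Cre, Hfe2 was -0.03 ± 0.11 SE.

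In FVB the same list was even, with 13 genes higher and 13 lower in Homo and 11 higher and 15 lower in Het than in WT tumors, and 0 passed. At an unadjusted limma p under 0.05 there were 5 in Homo (1 higher and 4 lower) and 6 in Het (2 higher and 4 lower). Over all genes the shares were 10% in Homo and 14.2% in Het. The higher ones in Het were Smad1 (0.39 ± 0.16 SE) and Smad4 (0.22 ± 0.10 SE). In both Homo and Het the smallest p was that of Il6st, which encodes gp130. Il6st had 100.4, 108, 93.7 and 113 CPM in Homo and 98.4, 102, 93.7 and 88.6 CPM in Het tumors, against 195, 228, 117 and 115 CPM in WT tumors. Each Homo and Het tumor lay below every WT tumor, with log2 fold changes of -0.595 ± 0.19 SE in Homo (limma adjusted p = 0.302) and -0.71 ± 0.19 SE in Het (limma adjusted p = 0.128). Without WT 1 and 2 these were -0.16 and -0.28, and 15 of the 26 genes were higher in Homo and in Het. The endothelial ligand Bmp2 was listed at 0 in 2 of 4 Homo, 3 of 4 Het and 0 of 4 WT tumors (-1.0025 ± 0.40 SE in Homo and -1.44 ± 0.40 SE in Het, or -0.53 and -0.97 without WT 1 and 2). Of the 11 endothelial markers, which include Bmp2, 10 were lower in Homo (median -0.61) and 10 in Het (median -0.92). Without WT 1 and 2 these counts were 7 and 8. Their sum was 122 to 196 CPM in Homo and 110 to 188 CPM in Het, against 141 to 327 CPM in WT tumors. The part of endothelial cells in the Bmp2 difference was not tested.

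BMP-SMAD target genes other than Id1 went different ways in the 3 tables. In mixed-strain Het tumors 7 of 7 tested were lower than in WT, with a median of -0.64, led by the inhibitory Smad6 (-0.96 ± 0.30 SE, limma adjusted p = 0.164) and by Smad9 (-0.69 ± 0.29 SE). In FVB 5 of 6 were higher in Homo (median 0.03) and in Het (median 0.21) than in WT, and without WT 1 and 2 the counts were 3 of 6 in Homo (median -0.09) and 6 of 6 in Het. In Rag1-/- livers 7 of 7 were higher with ad-ARID1A than with ad-Cre, with a median of 0.76 against 0.09 over all genes, and 6 of 7 once libraries were centred by their medians. None passed in any comparison. At an unadjusted limma p under 0.05 there were 2 in mixed-strain Het, 1 in FVB Homo, 0 in FVB Het and 4 in the Rag1-/- livers. The shares over all genes were 15.8%, 10%, 14.2% and 12.5% in the same order.

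Among those targets in the Rag1-/- livers, Smad9 had 36.8, 46.2 and 37.0 CPM with ad-ARID1A, against 15.3, 27.9 and 22.0 CPM with ad-Cre (0.91 ± 0.20 SE, limma adjusted p = 0.116). Smad7, a feedback inhibitor of the pathway, had 25.3, 34.5 and 29.4 CPM with ad-ARID1A, against 21.1, 19.3 and 11.8 CPM with ad-Cre (0.81 ± 0.22 SE, limma adjusted p = 0.175). Id2 had 109, 111 and 58.5 CPM with ad-ARID1A, against 56.9, 59.3 and 43.1 CPM with ad-Cre (0.76 ± 0.23 SE, limma adjusted p = 0.221). Smad9 and Smad7 were separated and Id2 was not, where 17.4% of all genes were separated (13.9% higher with ad-ARID1A). For Id2, Id1 and Hamp alike, ad-ARID1A 3 was the lowest of its group. Summed endothelial markers were 523 to 565 CPM with ad-ARID1A and 436 to 520 CPM with ad-Cre, and stellate and fibroblast markers 596 to 690 CPM and 357 to 628 CPM in the same order. Their part in these differences was not tested.

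Of all 26 genes of the hepcidin control list tested in Rag1-/- livers, 19 were higher and 7 lower with ad-ARID1A, or 15 and 11 after centring. Over all genes 66.3% were higher in this comparison. The list shares Id2, Id3, Smad6, Smad7 and Atoh8 with the BMP-SMAD targets, so the 2 counts are not independent. None of the 26 passed (6 at an unadjusted limma p under 0.05, against 12.5% of all genes). The hepatokine Fgl1 had 152, 168 and 140.1 CPM with ad-ARID1A, against 205, 215 and 329 CPM with ad-Cre. It was separated (-0.67 ± 0.16 SE, limma adjusted p = 0.1497), as were 17.4% of all genes in either direction.

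**Figure D3:**
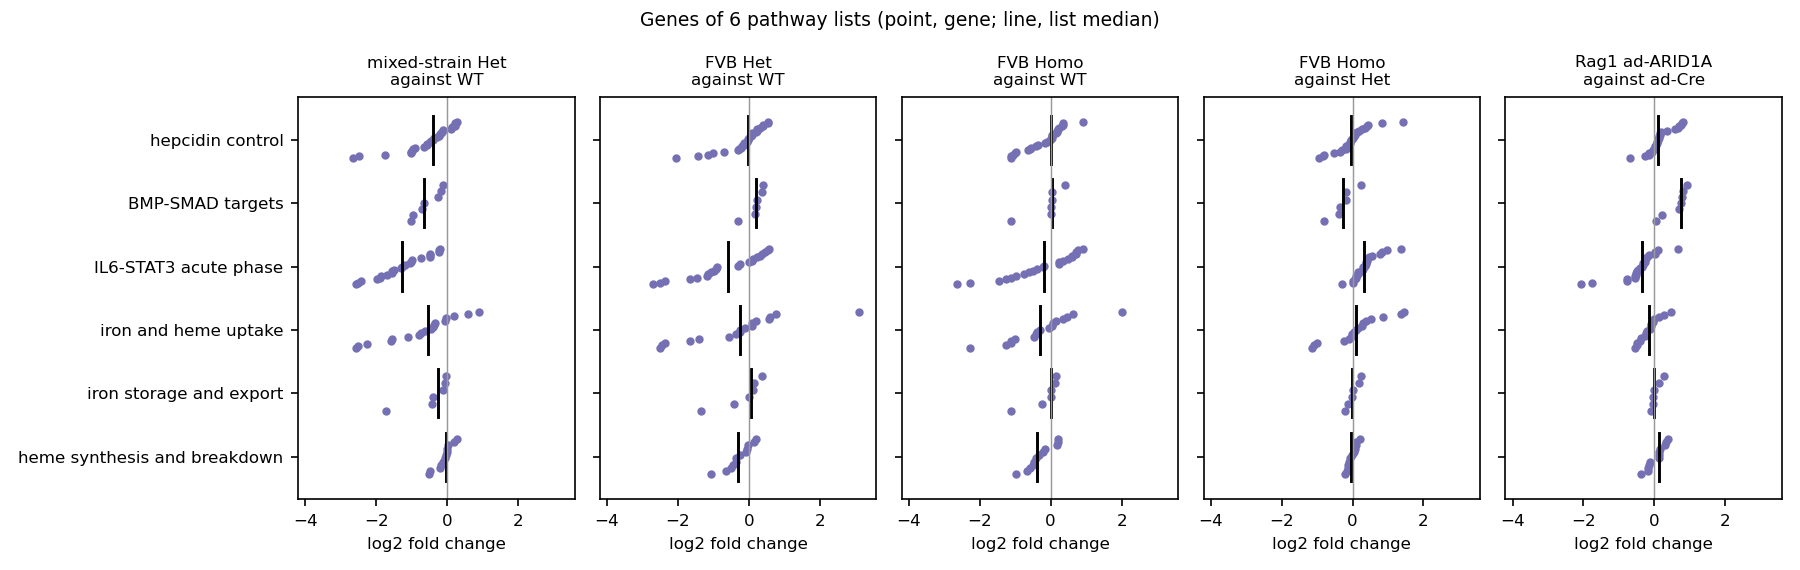
Log2 fold changes of the genes of 6 lists in the 5 comparisons, with a point for each gene and a line at each list's median. Acute phase genes lie to the left in mixed-strain Het tumors (median -1.26), and BMP-SMAD targets lie to the right in Rag1-/- livers with ad-ARID1A (median 0.76).

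Acute phase genes, which interleukin-6 and STAT3 drive together with hepcidin, were lower in mixed-strain Het than WT tumors in 23 of 23 tested (median -1.26, 0 passing). At an unadjusted limma p under 0.05 there were 15, all lower, against 15.8% of all genes (7.5% lower). In the same tumors hepatocyte markers were lower in 12 of 12 (median -0.35), neutrophil markers in 10 of 10 (median -1.74) and erythroid markers in 9 of 9 (median -0.90). The part of cell makeup in the acute phase counts was not tested. Haptoglobin (Hp), the hemoglobin scavenger, was -2.52 ± 0.64 SE (limma adjusted p = 0.111) and the interleukin-1 receptor Il1r1 -1.97 ± 0.52 SE (limma adjusted p = 0.125). In FVB 12 of 22 were lower in Homo (median -0.19) and 14 of 22 in Het (median -0.60) than in WT, and Orm1, an acute phase glycoprotein, was the one that passed. Without WT 1 and 2 the counts were 9 of 22 in Homo (median 0.24) and 13 of 22 in Het (median -0.24), so the direction in Homo rested on those libraries. Orm1 fell to at most 1 CPM in 3 of 4 Homo tumors and 2 of 4 Het tumors, against 3.97 to 13.7 CPM in WT tumors (-2.64 ± 0.40 SE, limma adjusted p = 0.0328 in Homo, and -2.70 ± 0.40 SE, limma adjusted p = 0.0465 in Het). Without WT 1 and 2 it was -2.71 in Homo and -2.77 in Het and did not pass (limma adjusted p = 0.0864 and 0.0685). In Homo against Het 19 of 22 were higher, with a median of 0.33, and 0 passed. At an unadjusted limma p under 0.05 there was 1, against 3.86% of all genes. In Rag1-/- livers 19 of 23 were lower with ad-ARID1A (median -0.35) and 0 passed. At an unadjusted limma p under 0.05 there were 10, against 12.5% of all genes. The lower genes were led by the fibrinogen chains Fgg (-0.56 ± 0.13 SE, limma adjusted p = 0.122) and Fga (-0.56 ± 0.14 SE, limma adjusted p = 0.152). Socs3, which dampens STAT3, was 0.67 ± 0.29 SE.

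Genes for iron and heme uptake were lower in 15 of 18 in mixed-strain Het tumors (median -0.53), and 1 passed. That gene, Cd163, the macrophage receptor for hemoglobin bound to haptoglobin, fell to 1.23, 5.10 and 8.58 CPM (lowest, median, highest) in Het, against 9.27, 21.1 and 103 CPM in WT tumors. Its Het tumors all lay below every WT tumor (-2.25 ± 0.41 SE, limma adjusted p = 0.032, and -1.73, limma adjusted p = 0.0303, without WT 2 and Het 5), while the macrophage marker sum, which includes it, overlapped at 473 to 998 CPM in Het and 599 to 1690 CPM in WT. Of the 12 markers in that sum 10 were lower in Het, and their part in the Cd163 difference was not tested. The FVB Het tumors went the other way for Cd163, with 3 of 4 above every WT tumor (0.605 ± 0.35 SE, limma adjusted p = 0.477). Of the 4 FVB Homo tumors 1 lay below every WT tumor and 3 lay within the WT range. Homo against Het was -1.01 ± 0.35 SE and did not pass. In FVB the heme carrier hemopexin (Hpx) had 85.6, 105, 131 and 95.01 CPM in Homo and 83.9, 99.0, 44.0 and 103 CPM in Het tumors, against 158, 443, 272 and 195 CPM in WT tumors. Both groups lay below every WT tumor (-1.26 ± 0.31 SE, limma adjusted p = 0.172 in Homo, and -1.66 ± 0.31 SE, limma adjusted p = 0.0623 in Het). The endocytic receptor Lrp2 was higher, at 2.025 ± 0.74 SE in Homo and 3.12 ± 0.74 SE in Het (limma adjusted p = 0.372 and 0.0986), or 1.17 and 2.27 without WT 1 and 2. In Rag1-/- livers 13 of 16 uptake genes were lower with ad-ARID1A (median -0.15, 0 passing). At an unadjusted limma p under 0.05 there were 3, against 12.5% of all genes. These 3 were Scara5 (-0.56 ± 0.20 SE) and Hp (-0.49 ± 0.21 SE), both lower, and Slc48a1 (0.27 ± 0.10 SE), higher.

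Among the 6 tested genes of iron storage and export other than the members, ceruloplasmin (Cp), the ferroxidase that helps ferroportin load transferrin, had the smallest p of each comparison with WT. Mixed-strain Het tumors had 40.9 to 494 CPM, against 154 to 860.1 CPM in WT tumors (-1.72 ± 0.52 SE, limma adjusted p = 0.157). In FVB Cp had 49.9, 68.6, 121 and 66.7 CPM in Homo and 69.6, 73.5, 36.5 and 75.6 CPM in Het, against 85.0, 290.02, 172 and 140.1 CPM in WT tumors. All Het and 3 of 4 Homo tumors lay below every WT tumor (-1.35 ± 0.35 SE in Het, limma adjusted p = 0.116, and -1.11 ± 0.35 SE in Homo, limma adjusted p = 0.299). The list itself had 6 of 6 genes lower in mixed-strain Het tumors and 3 of 6 lower in each FVB comparison, or 2 in Homo and 1 in Het against WT without WT 1 and 2. None passed, and Cp alone had an unadjusted limma p under 0.05 in each comparison with WT.

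Across libraries, the gene most like Hamp was Il6st. Among 9400 genes ranked by the lowest of 3 correlations, 1 for each table, its Pearson r was 0.77 over the 16 mixed-strain tumors, 0.78 over the 12 FVB tumors and 0.89 over the 6 Rag1-/- livers. The next were Nrn1, Aqp9 and Rapgef4, with lowest r of 0.74, 0.71 and 0.69. The genes most like Slc40a1 were Dennd5b, Lipc, Bcar3, Tmem25 and Nnt (lowest r 0.77 to 0.69), and those most like Bmp6 were Tspo, Eng, Zbtb20, Arhgap23 and Phactr2 (0.72 to 0.68). Libraries of a table share group, depth and tissue makeup, so these values are a description.

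Within the mixed-strain set 33 relations of Hamp were computed, over all tumors and within genotypes. Hamp and Tfr2 had r = 0.70 and rho = 0.55 over the 16 tumors (permutation p = 0.00264 for r and 0.0284 for rho, Benjamini-Hochberg adjusted 0.0218 and 0.128), but r = 0.53 within Het and 0.20 within WT (exact permutation p = 0.175 and 0.686), so the relation was not shown within a genotype. Over all tumors r was 0.53 without the 2 farthest from the Tfr2 median. Hamp and Bmp6 had r = 0.82 and rho = 0.79 within the 8 Het tumors (exact permutation p = 0.00241 and 0.0279, adjusted 0.0218 and 0.128), and 0.63 without the 2 tumors farthest from the median of Bmp6. Within the 8 WT tumors r was 0.29 (exact permutation p = 0.46). Hamp and Id1 had r = 0.75 and rho = 0.87 within WT (exact permutation p = 0.0177 and 0.00794, adjusted 0.0835 and 0.0794) and r = 0.52 without the 2 farthest tumors, and 0.57 and 0.36 within Het, where r was -0.53 without the 2 farthest tumors. The mean of the hepatocyte markers had r = 0.78 and rho = 0.71 with Hamp over all 16 tumors (permutation p = 0.00013 and 0.00317, adjusted 0.00429 and 0.0794), and r = 0.63 without the 2 farthest. Within each genotype r was 0.68, which did not pass after adjustment (adjusted exact permutation p = 0.135 in Het and 0.196 in WT). Without the 2 farthest tumors r was 0.33 within Het and -0.02 within WT.

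**Figure D4:**
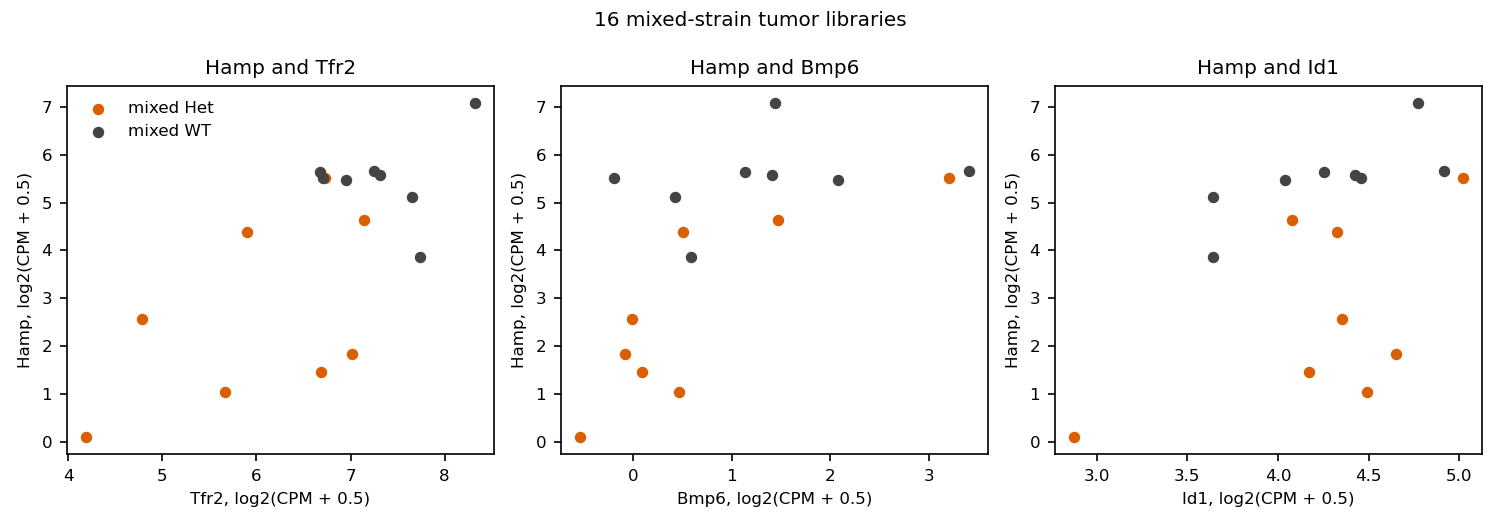
Hamp against Tfr2, Bmp6 and Id1 in the 16 mixed-strain tumors, each axis in log2(CPM + 0.5), orange for Het and grey for WT. The highest correlations within a genotype are r = 0.82 with Bmp6 in Het and r = 0.75 with Id1 in WT among these 3 genes, and Het 6 lies lowest in all 3 panels.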

How the data were processed

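The members and gene lists were chosen with earlier results of these data known. The authors deposited 3 gene tables of normalized log2 values. Per the submitters' processing notes, the tools were Trim Galore, HISAT2, SAMtools and featureCounts, with no versions given. The mixed-strain table is named RPKM, but its values behave as log2(CPM + 1), with back-transformed sums of 999553 to 999898. It was analysed as log2(CPM + 0.5) for the 17552 genes with a mean CPM of at least 0.5. The other tables, floored at 1 CPM, were used as deposited. Their low values are whole reads, but higher values are rounded too coarsely for a count test.

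Each table was fitted with limma 3.58.1 in R 4.3.3 (variance trend, Benjamini-Hochberg over all its genes, threshold 0.05), with the 3 FVB groups in one fit. The procedure was tested on simulated data. Single relations used permutation tests written in Python 3.11.15 with numpy 2.4.6, and scipy 1.17.1 ranked values and adjusted the p-values. Named list genes were drawn from those that passed, and otherwise from those with the 2 smallest p-values in each direction, and not all of these are named. Further genes named for their role were chosen after their values were seen. The treatment text gives Het and Homo the same words, so the genotype label set the groups. The ad-ARID1A descriptions name ad-Cre columns, so columns were matched by the virus in the title and the number in the description. The planned Hamp to Hamp2 comparisons were not run in FVB, where Hamp2 was not analysed. Alternatives covered pseudocount, filter, centring, replicate block, variance trend, and libraries left out. List counts without libraries that stood apart were added after seeing the data. One gene among those most like Hamp is not reported here.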

Additional observations from a re-analysis of the deposited data

Results flagged for a closer look

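In 2 of 47 groups of 4 to 8 libraries one library lay far from the rest, and chance alone gives about 1 in 20. Among mixed-strain Het tumors, Id1 was lowest in Het 6, at 2.88 on the log2(CPM + 0.5) scale (6.84 CPM), where the next lowest tumor had 4.08. The gap was 0.561 of the group's range, against a critical value of 0.526. Hamp was lowest in the same tumor, at 0.569 CPM. Among FVB Het tumors, Bmp6 was highest in Het 1, at 0.84 on the log2 CPM scale (1.79 CPM), while the other 3 were listed at 0, so the gap was the whole range (1, against 0.829). With 3 values at the floor any value above it gives this gap, so the floor set this flag and the chance rate does not apply to it.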

How the results depend on the processing

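Of the Hamp fold changes, all kept their direction under the alternatives run. Leaving out single libraries gave -3.20 to -2.43 in mixed-strain Het, -3.86 to -2.82 in FVB Het, -2.44 to -1.61 in FVB Homo against WT, 0.88 to 1.805 in FVB Homo against Het and 0.005 to 1.035 in Rag1-/-. The mixed-strain value passed with a replicate block (-2.80, limma adjusted p = 0.0335). Same-numbered libraries did not deviate together (correlations -0.163 to 0.286 in mixed-strain, -0.28 to 0.356 in FVB and -0.0509 to 0.0501 in Rag1-/-, with 1 of 8, 0 to 2 of 4 and 2 of 3 best with their own number), so the block is a check only. Hamp minus Hamp2 was -1.94 in mixed-strain tumors with the block (exact permutation p = 0.0781), -2.45 to -1.67 without single libraries, and -0.013 to 0.59 in Rag1-/-.

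Genes passing in mixed-strain Het, 28, were 14 with no filter, 17 with the mean log2 CPM required to reach 2, 75 with the block, 16 without WT 2 and Het 5, and 8 to 138 without single libraries. In FVB Het, 4 passed, against 1 with log2(CPM + 1), 0 with the stricter filter, 2 with centring, 1 with only both groups compared, 0 with the block, 1 without WT 1 and 2, and 0 to 256 without single libraries. In FVB Homo against WT, 7 passed, against 0 with the stricter filter, 0 with both groups alone, 1 with the block, 3 without WT 1 and 2, and 0 to 36. Homo against Het gave 0, and 0 to 3. Rag1-/- gave 45, 1 with no variance trend, and 0 to 19. The cause was not tested.

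Some members changed sign, and in FVB not only those near 0. Tfrc in mixed-strain Het was -0.0082 with centring and -0.094 without WT 2 and Het 5, where Slc40a1 was 0.066. Without WT 1 and 2, FVB Het Trf was -0.41, Bmp6 0.075 and Fth1 0.155, and FVB Homo Tfr2 was 0.08, Trf -0.16 and Bmp6 0.085 against WT. Bmp6 in Homo against Het was -0.0016 with log2(CPM + 1). Without single libraries the mixed-strain ranges were -0.13 to 0.17 for Id1, -0.16 to 0.021 for Slc40a1 and -0.10 to 0.11 for Tfrc. In FVB Het they were -0.10 to 0.04 for Fth1, -0.0525 to 0.18 for Hfe, -0.0025 to 0.12 for Tfrc and -0.21 to 0.51 for Trf, and in Homo against WT -0.01 to 0.13 for Fth1. In Homo against Het they were -0.08 to 0.22 for Bmp6, -0.24 to 0.0925 for Id1, -0.063 to 0.11 for Slc40a1 and -0.0475 to 0.29 for Tfrc. In Rag1-/- they were -0.10 to 0.023 for Fth1, -0.17 to 0.625 for Hamp2, -0.0033 to 0.16 for Hfe and -0.36 to 0.13 for Tfrc. Depth limits Bmp6 and Hamp2, which held few or no reads in most tumors.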

Other observations

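Genes of heme synthesis and breakdown use iron downstream of uptake. Of 12, 9 were lower than in WT tumors in FVB Homo (median log2 fold change -0.37) and 10 in FVB Het (median -0.305). None passed the limma test over all genes. At an unadjusted limma p under 0.05 there were 4 in Homo and 1 in Het, against 10% and 14.2% of all genes. The direction rested on WT 1 and 2: without them 5 of 12 were lower in Homo (median 0.076) and 3 of 12 in Het (median 0.079). Summed markers of erythroid cells, which make heme, ran from 30.8 to 107 CPM in Homo and from 26.0 to 29.2 CPM in Het, against 22.2 to 539 CPM in WT tumors, and their part in these counts was not tested. Fech, which inserts iron into heme, was -0.965 ± 0.35 SE in Homo and -1.055 ± 0.35 SE in Het, or -0.1975 and -0.2875 without WT 1 and 2. Alas1, the first enzyme of the pathway, was -0.51 ± 0.18 SE in Homo and -0.35 ± 0.18 SE in Het, or -0.34 and -0.18 without them. In mixed-strain Het tumors Fech was -0.50 ± 0.25 SE and Alas1 -0.49 ± 0.26 SE. In Rag1-/- livers Alas1 was -0.37 ± 0.11 SE with ad-ARID1A against ad-Cre, and all 3 ad-ARID1A livers lay below the controls. Blvrb, of the same list, was 0.39 ± 0.14 SE and separated above the controls, and of the 12 genes 7 were higher and 5 lower.

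Among iron and oxygen sensors, Fbxl5, which degrades iron regulatory proteins when iron is plentiful, was 0.41 ± 0.13 SE in mixed-strain Het tumors, and Aco1, which doubles as an iron regulatory protein, was -0.33 ± 0.12 SE. In FVB Het tumors Aco1 was 0.35 ± 0.20 SE, or 0.64 without WT 1 and 2. In mitochondrial iron use, the cysteine desulfurase Nfs1 was 0.28 ± 0.10 SE in FVB Homo and 0.27 ± 0.10 SE in FVB Het tumors, and none of these genes passed.

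Among markers of other cell types, Lrat, which stores retinol in stellate cells, fell in FVB Het tumors (-2.50 ± 0.31 SE, limma adjusted p = 0.0234). Its level there was 0.07 ± 0.15 on the log2 CPM scale (SD, n = 4), near the floor at 0. Lrat did not pass in FVB Homo tumors (-1.78 ± 0.31 SE, limma adjusted p = 0.074), nor in Het without WT 1 and 2 (-2.58, limma adjusted p = 0.0685). Of the 12 stellate and fibroblast markers, 9 were lower and 3 higher in FVB Het than in WT tumors (median -0.47). In FVB Homo 12 were lower (median -0.80), and with ad-ARID1A 10 were higher and 2 lower. The part of these cells in the Lrat difference was not tested.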
